A study of Mus musculus with 6 samples.

Results

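The 10 genes of the BCL2 family described here are Bcl2, Bcl2l1, Bcl2l11, Mcl1, Bax, Bak1, Bbc3, Bad, Bid and Bmf, measured in ovaries of E15.5 mouse embryos. The members were all probe sets, that is, groups of short array probes read together, that the platform annotation ties to exactly 1 of these symbols, 31 of 45037 probe sets. They covered 9 of the 10 genes. The annotation used tied no probe set to Bax alone, so its expression was not analysed here. The arrays came from ovaries labelled as dmrt1 knockout (3 arrays, replicates 1 to 3) and ovaries labelled WT (3 arrays, replicates 1 to 3), both at E15.5, and the design text calls the removal of Dmrt1 conditional. The labels give neither the Cre driver, the cell type in which Dmrt1 was removed, the strain, nor whether animals were pooled. Nor do they state that the replicates are different animals, so each p-value reflects only the scatter among these arrays, which may be technical.

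BCL2 family proteins decide at the mitochondrial outer membrane whether a cell dies by apoptosis. Survival members (BCL2, BCL-XL from Bcl2l1, MCL1) hold the pore-forming effectors BAX and BAK1 in check, and BH3-only members (BIM from Bcl2l11, PUMA from Bbc3, BAD, BID, BMF) relay stress or loss of growth factors by binding the survival proteins or the effectors. In the mouse ovary this balance helps to set how many germ cells survive fetal life, when many oocytes are lost around meiotic prophase.

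Values were linear intensities that the authors made with GCRMA, and they were compared as log2 values with limma. A probe set was tested when 3 or more of the 6 arrays reached log2 4 (16 intensity units). A call means an adjusted p under 0.05 over all 22040 tested probe sets. Arrays correlated at 0.986 to 0.993 (Pearson, log2 of tested probe sets) within groups and 0.973 to 0.980 between groups. With untested probe sets included, the median probe set of every knockout array was dimmer (13.1 to 13.4 units) than that of every wild-type array (14.4 to 14.7). Among tested probe sets the median ran only from log2 7.87 to 7.92 over the 6 arrays. The part of this offset in the lower readings of dim probe sets was not tested, apart from the alternative normalizations. The Dmrt1 probe set, which may or may not lie in the deleted stretch, read 8.55, 5.97 and 7.46 intensity units in knockout and 8.47, 8.51 and 13.0 in wild type, under the filter on every array, so it does not check the labels. Xist, transcribed from the inactive X chromosome of female cells, averaged log2 1.81 on knockout replicate 1, against 9.85 and 9.75 on the remaining knockout arrays and 10.7 to 10.9 on the wild-type arrays. Over 9 Y-linked probe sets the median was log2 1.29 to 1.49 across the 6 arrays, knockout replicate 1 included. Knockout replicate 1 therefore stood apart in Xist, and results that rest on it are also given without it. Of markers for the labelled tissue, all 9 germ cell and all 9 pregranulosa genes passed the filter, as did 3 of 6 Sertoli genes. Aard and Ptgds were bright, Sox9 was dim (12.1 to 16.2 intensity units in knockout, against 17.3 to 20.5 in wild type), and Amh, Dhh and Cyp26b1 were under the filter.

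Of the 31 BCL2 family probe sets 21 were tested, and they belonged to 8 genes. Of the 21 tested probe sets 2 fell in the knockout ovaries, 1 of Bcl2 and 1 of Bcl2l11, and 0 rose. Over all tested probe sets 5.15% fell and 1.46% rose, 6.6% together. Of these 22040 probe sets 19541 name exactly 1 gene, as the member probe sets do. Among those 2.27% of each gene's brightest and 5.04% of the others fell, both under 5.15%. Counted once per gene, through its probe set of highest mean intensity, 1 of 8 genes fell (Bcl2l11) and 0 rose, beside 2.27% of 11897 genes that fell and 1.28% that rose, 3.55% together. At an unadjusted p under 0.05 there were 4 of the 8 genes, Bcl2 and Bcl2l11 lower and Bcl2l1 and Bid higher, beside 17.4% of all genes. The groups did not overlap for 6 of 21 probe sets, 3 higher and 3 lower in knockout, beside 26.5% of all tested probe sets (11.2% higher and 15.2% lower), so this share lies near the background. Through the brightest probe set the groups did not overlap for 4 of the 8 genes, Bcl2 and Bcl2l11 lower and Bcl2l1 and Bid higher, beside 23.7% of all genes. The median log2 difference of the 8 genes was -0.03, beside 0.02 over all tested genes. The SD among knockout arrays ran from 0.04 to 0.91 log2 units over the 21 probe sets, with a median of 0.15, and among wild-type arrays from 0.02 to 1.02, with a median of 0.14.

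**Figure D1:**
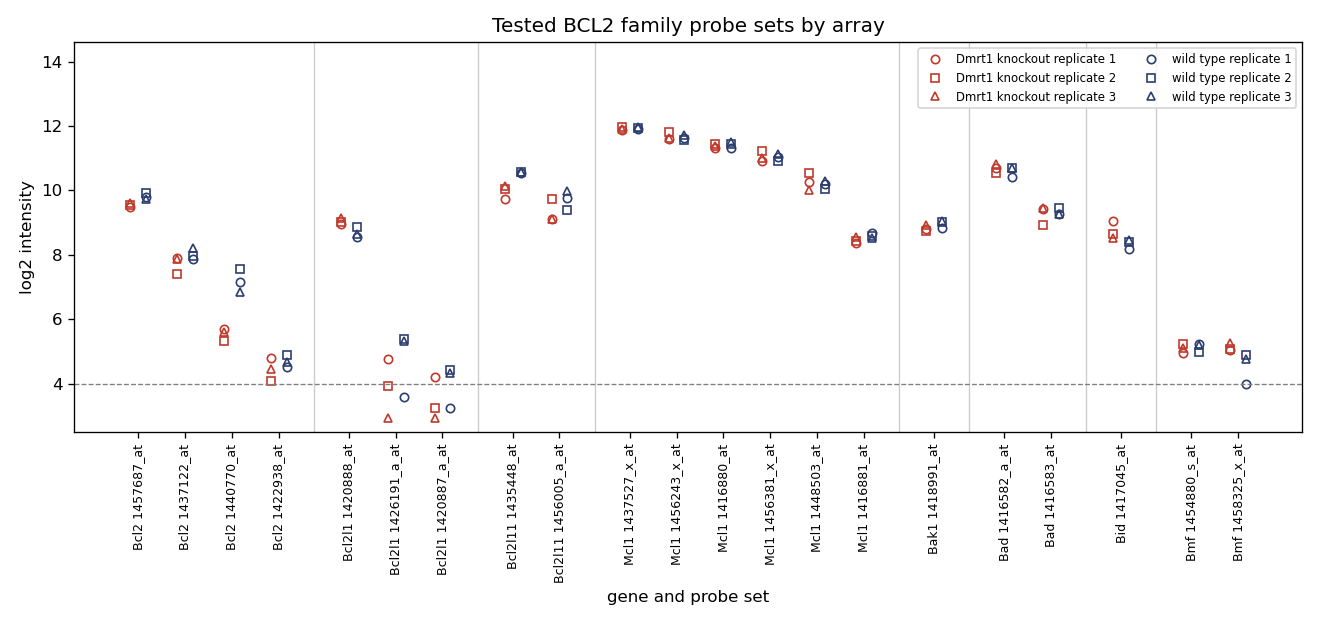
Log2 intensity (vertical axis) of the 21 tested BCL2 family probe sets (horizontal axis, grouped by gene), with a symbol for each array, Dmrt1 knockout in red at the left and wild type in blue at the right of each position. The dashed line is the filter level of log2 4. The red and blue symbols part most widely at Bcl2 1440770_at, and they lie on top of each other for most Mcl1 probe sets.

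Bcl2, the founding survival protein of the family, was lower in knockout through all 4 of its tested probe sets, and 1 of them fell past the threshold. That probe set (1440770_at) read 52.3, 40.3 and 48.3 intensity units in knockout replicates 1, 2 and 3, against 141, 191 and 116 in wild-type replicates 1, 2 and 3. Every knockout array lay under every wild-type array. The level was 3.13-fold lower in knockout, a log2 difference of -1.65 ± 0.22 (SE, n = 3 each, limma adjusted p = 0.00141). This was the largest difference among the 21 probe sets, and it remained past the threshold in each of the 16 alternative fits, with adjusted p from 0.00110 to 0.00939. Without knockout replicate 1 it was -1.73 (limma adjusted p = 0.00381).

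The brightest Bcl2 probe set (1457687_at) showed a far smaller difference. It read 720, 747 and 777 intensity units in knockout, against 895, 979 and 861 in wild type, so the groups did not overlap. The log2 difference was -0.28 ± 0.12 (SE), with a 95% interval of -0.55 to -0.02, and it did not pass (limma adjusted p = 0.204). The remaining tested probe sets differed by -0.28 (1437122_at) and -0.25 (1422938_at) with overlapping groups, and without knockout replicate 2 by -0.12 and -0.07. With quantile normalization the dim 1422938_at differed by -0.12 in place of -0.25, while the called 1440770_at differed by -1.57. Averaging all 4 probe sets gave -0.62, short of the threshold (limma adjusted p = 0.0618). Bcl2 therefore carried probe sets that disagreed in size, though not in sign. A lower call by another probe set with no call by the brightest was found for 283 of 4852 genes with at least 2 tested probe sets (5.83%), and 5.04% of named probe sets other than a gene's brightest fell. Where the Bcl2 probe sets lie along the transcript is not known here, so whether they read different transcript forms was not tested.

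Bcl2l1 encodes BCL-XL, a survival protein that germ cells of the mouse fetal gonad need, and its bright probe set leaned the other way. Probe set 1420888_at read 498, 515 and 563 intensity units in knockout, against 374, 470 and 405 in wild type. All 3 knockout arrays were above all 3 wild-type arrays. The log2 difference of 0.34 ± 0.14 (SE, n = 3 each, 95% interval 0.02 to 0.66) did not pass (limma adjusted p = 0.21), and without knockout replicate 1 it was 0.38 (0.253).

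Both dim Bcl2l1 probe sets pointed down and varied widely within groups. Probe set 1426191_a_at read 27.0, 15.3 and 7.70 intensity units in knockout, against 12.01, 41.7 and 39.7 in wild type, and 1420887_a_at read 18.6, 9.54 and 7.69 in knockout, against 9.55, 21.4 and 20.3 in wild type. On both, knockout replicates 2 and 3 and wild-type replicate 1 were under the filter level, while knockout replicate 1 and wild-type replicates 2 and 3 were above it. Their log2 differences of -0.88 ± 0.52 and -0.53 ± 0.37 (SE) did not pass (limma adjusted p = 0.384 and 0.471). Single arrays moved them widely, to -0.41 and -0.27 without knockout replicate 3 and to -1.47 and -0.91 without wild-type replicate 1.

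Mcl1, a short-lived survival protein that is destroyed and remade rapidly, was read brightly by 6 probe sets. The probe set with the highest mean (1437527_x_at) read 3765, 3983 and 3829 intensity units in knockout, against 3879, 3922 and 3979 in wild type. The groups overlapped, and the log2 difference was -0.03 ± 0.08 (SE, n = 3 each), with a 95% interval of -0.20 to 0.15 (limma adjusted p = 0.892). Over all 6 probe sets the log2 differences ran from -0.14 to 0.10, 3 positive and 3 negative, and the groups overlapped on each. This probe set and 2 others of Mcl1 carry the ending _x_at, which marks probes that can match other transcripts too.

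**Figure D2:**
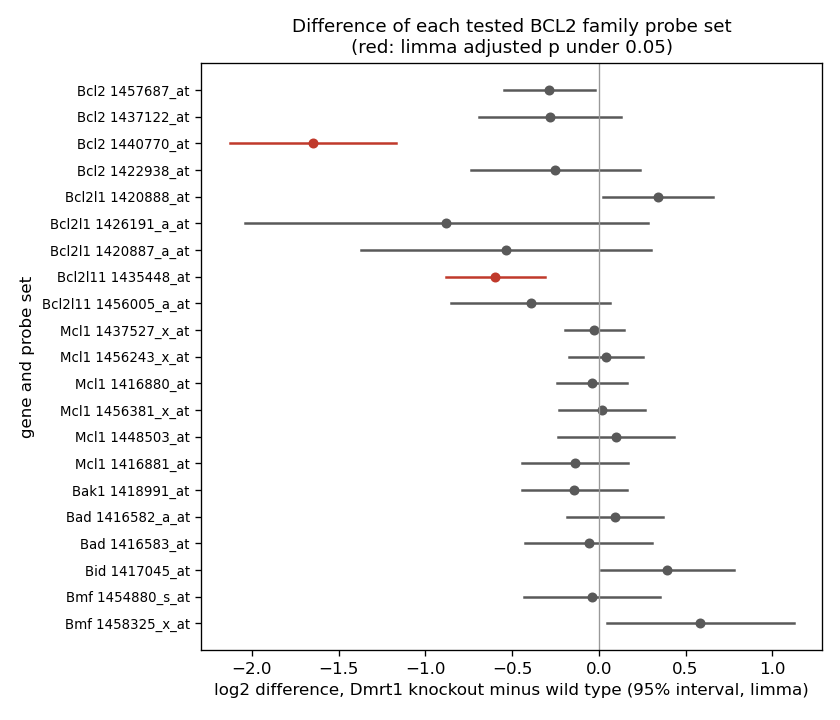
Log2 difference, Dmrt1 knockout minus wild type (horizontal axis), of each tested BCL2 family probe set (vertical axis), with limma's 95% interval as a line and calls in red. Bcl2 1440770_at (-1.65) and Bcl2l11 1435448_at (-0.60) are the called probe sets, and the 6 Mcl1 probe sets lie between -0.14 and 0.10.

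Bak1 encodes an effector that opens the outer membrane once it is activated. Its bright probe set (1418991_at) read 448, 430 and 483 intensity units in knockout, against 453, 523 and 526 in wild type. The groups overlapped, with a log2 difference of -0.14 ± 0.14 (SE, n = 3 each, 95% interval -0.44 to 0.16, limma adjusted p = 0.616). Its other probe set stayed between 4.22 and 5.79 intensity units in knockout and between 4.91 and 6.16 in wild type, under the filter on all arrays.

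Bcl2l11, which encodes the potent BH3-only protein BIM, was the member gene that fell through its brightest probe set. Probe set 1435448_at read 848, 1050 and 1135 intensity units in knockout replicates 1, 2 and 3, against 1482, 1529 and 1541 in wild-type replicates 1, 2 and 3. The groups did not overlap, and knockout replicate 1 was the lowest array. The level fell by 33.8% in knockout, a log2 difference of -0.60 ± 0.13 (SE, n = 3 each, limma adjusted p = 0.0216). The wild-type arrays were tight, with an SD of 0.03 log2 units, against 0.22 among the knockout arrays.

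The Bcl2l11 call depended on single arrays. Without knockout replicate 1 the log2 difference was -0.47 and did not pass (limma adjusted p = 0.0572), and without wild-type replicate 1, 2 or 3 it was -0.61, -0.59 or -0.58 (0.0767, 0.0917 and 0.0897). The second tested probe set (1456005_a_at) read 550, 856 and 553 intensity units in knockout, against 866, 675 and 1009 in wild type, with overlapping groups. Its log2 difference of -0.39 ± 0.21 (SE) did not pass (limma adjusted p = 0.318). The average over both probe sets differed by -0.49 and did not pass either (0.0967). The 3 other Bcl2l11 probe sets were under the filter, between 5.09 and 9.26 intensity units in knockout and between 8.54 and 11.3 in wild type.

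**Figure D3:**
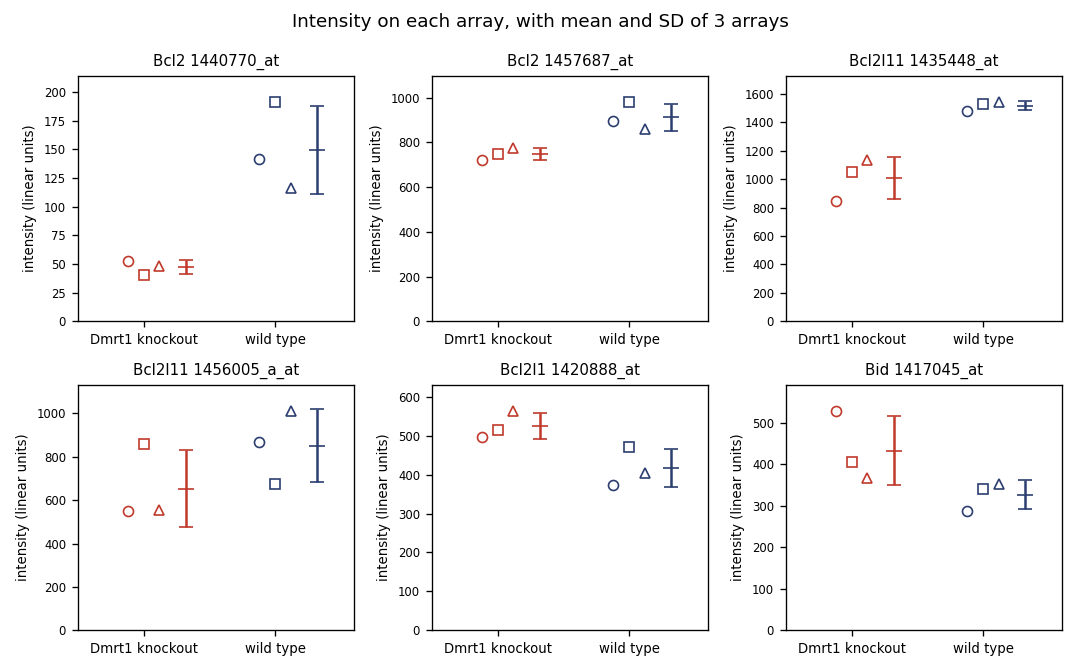
Intensity in linear units (vertical axes, from 0) on each array for 6 probe sets of Bcl2, Bcl2l11, Bcl2l1 and Bid, with Dmrt1 knockout (red) left of wild type (blue) and the mean and SD of 3 arrays as a bar. The 3 knockout arrays lie apart from the 3 wild-type arrays in all panels except Bcl2l11 1456005_a_at.

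Single marker genes of other cell types were called in these whole ovaries too. Each gene is counted here through its brightest tested probe set. Through another probe set alone, counting calls in either direction, Col1a1 and Dcn (stroma) and Dazl (germ cells) were called. These were named after their values were seen. In bulk tissue, fewer cells of a type and less RNA per cell cannot be told apart. Of 10 macrophage and leukocyte genes 9 were lower in knockout and 2 of them fell (Ptprc and Mrc1), with a summed intensity of 3608 to 5978 in knockout, against 5510 to 6903 in wild type, lowest on knockout replicate 1. Of 5 tested endothelial genes 4 were lower and 2 fell (Flt1 and Tek), with sums of 1016 to 1417 in knockout, against 1404 to 1659 in wild type, while Pecam1 and Cdh5 were under the filter. Of 7 stromal genes 6 were lower and 0 passed (4 had an unadjusted limma p under 0.05), with sums of 27773 to 29270 in knockout, against 31989 to 35393 in wild type. Of 3 tested erythroid genes all were lower and Slc4a1 fell, with sums of 332 to 489 in knockout, against 485 to 1346 in wild type, while Hba-a1 and Epor were under the filter. Of 9 germ cell genes 7 were higher and Dppa3 rose, with sums of 18092, 13158 and 11868 in knockout replicates 1, 2 and 3, against 10991, 12288 and 10686 in wild type. Knockout replicate 1 was the highest array, and knockout replicate 3 lay within the wild-type range. Dppa3 read 1182, 197 and 76.8 intensity units in knockout, against 12.2, 12.1 and 18.8 in wild type, and its log2 difference of 4.22 (limma adjusted p = 0.00817) was 3.13 without knockout replicate 1 (0.00208). Of 9 pregranulosa genes 7 were higher and 0 passed (3 had an unadjusted limma p under 0.05), with sums of 11461 to 12891 in knockout, against 10491 to 10907 in wild type. Of 3 tested Sertoli genes 1 was higher, 2 were lower and 0 passed (all 3 had an unadjusted limma p under 0.05). Without knockout replicate 1 Flt1 still passed (limma adjusted p = 0.0450), while Ptprc (0.0769), Mrc1 (0.0847), Tek (0.112) and Slc4a1 (0.0837) did not. The part of these cells in the BCL2 family values was not tested.

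Bcl2 and Bcl2l11 are the 2 genes with a called probe set, so the 250 bases before their start (the most upstream one where RefSeq lists several) are shown, in RefSeq sequence of build GRCm38.p6, with capitals for a motif match. The window of Bcl2 is chr1:106714291-106714540 on the minus strand, and that of Bcl2l11 is chr2:128125788-128126037 on the plus strand.
Bcl2: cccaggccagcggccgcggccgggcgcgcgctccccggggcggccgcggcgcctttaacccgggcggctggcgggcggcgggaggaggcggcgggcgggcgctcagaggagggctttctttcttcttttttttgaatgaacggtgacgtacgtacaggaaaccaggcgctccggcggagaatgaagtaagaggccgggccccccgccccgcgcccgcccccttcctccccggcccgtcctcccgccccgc
Bcl2l11: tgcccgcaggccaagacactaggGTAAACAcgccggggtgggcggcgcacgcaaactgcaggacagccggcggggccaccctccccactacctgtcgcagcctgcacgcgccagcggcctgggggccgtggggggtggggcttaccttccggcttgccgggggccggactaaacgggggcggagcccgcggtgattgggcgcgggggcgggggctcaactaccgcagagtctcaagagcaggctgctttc

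Both promoters are rich in G and C. In the 300 bases from 250 before to 50 after the start, Bcl2 has 76.0% G or C and 44 CG dinucleotides, and Bcl2l11 has 71.0% and 27, while the medians over all 32851 RefSeq windows of that kind were 52.7% and 7. The core letters ACAATGT of the DMRT1 binding motif, searched on both strands, were in 0 of the 17 such windows of the 9 measured member genes and in 2.96% of all windows. The FOXO core TGTTTAC, which reads GTAAACA on the other strand, was in 2 of 17, 1 of Bcl2l11 (in capitals above) and 1 of Bbc3, and in 3.65% of all. The p53 half-site was in 1 of 17, a window of Bmf, and in 8.36% of all. Bax, with no probe set tied to it alone in the annotation used, is outside these 17. Its window held 1 p53 half-site and 0 of the other motifs. A match, or its absence, describes these letters and says nothing of binding.

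Among the other BH3-only genes none was called. Bid, which links death receptors to mitochondria after caspase cleavage, read 528, 405 and 367 intensity units in knockout, against 288, 341 and 353 in wild type (1417045_at). The groups did not overlap, and knockout replicate 1 was the highest array. The log2 difference of 0.39 ± 0.17 (SE, n = 3 each, 95% interval 0.01 to 0.78) did not pass (limma adjusted p = 0.23). Without knockout replicate 1 it was 0.24 (0.49), a change of more than 1.5 times.

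Bmf, a BH3-only protein tied to the actin and myosin skeleton, was dim and its probe sets disagreed. Probe set 1458325_x_at read 33.2, 33.9 and 38.4 intensity units in knockout, against 15.9, 29.4 and 27.3 in wild type, with wild-type replicate 1 just under the filter level. Its log2 difference of 0.58 ± 0.24 (SE, n = 3 each) did not pass (limma adjusted p = 0.206), and without wild-type replicate 1 it was 0.31. Probe set 1454880_s_at read 31.3, 37.8 and 34.7 in knockout, against 37.9, 31.7 and 36.9 in wild type, with overlapping groups and a log2 difference of -0.04 ± 0.18 (limma adjusted p = 0.936).

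Bad, a BH3-only protein that survival kinases switch off by phosphorylation, was bright in both groups. Probe set 1416582_a_at read 1650, 1491 and 1826 intensity units in knockout, against 1358, 1649 and 1651 in wild type. Its log2 difference was 0.09 ± 0.12 (SE, n = 3 each, 95% interval -0.18 to 0.37, limma adjusted p = 0.726), and that of 1416583_at was -0.06 ± 0.16 (0.881). The groups overlapped on both probe sets.

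Bbc3 encodes PUMA, a p53 target that takes part in oocyte loss after DNA damage, and its single probe set was under the filter on every array. It read 5.77, 6.48 and 6.30 intensity units in knockout, against 6.13, 5.78 and 6.77 in wild type. Bbc3 was therefore not tested in the main fit. In the fit with no filter 1 of 9 member genes was called, Bcl2l11, so Bbc3 was not. At such dim intensities a difference may be missed. Of the 10 untested member probe sets, all read between 2.67 and 14.8 intensity units, and they belonged to Bcl2, Bcl2l1, Bcl2l11, Bak1, Bbc3, Bid and Bmf.

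The 5 genes whose brightest probe set followed Bcl2l11 most closely over the 6 arrays were Adamtsl1 (Pearson r = 0.998), Scn7a (0.997), Unc5c (0.995), 4931415C17Rik (0.994) and She (0.992). Bcl2l11 was taken because its brightest probe set had the smallest p among the members. Genes picked to follow it over both groups are therefore lower in knockout by the way they were picked. In knockout Adamtsl1, Scn7a, Unc5c and 4931415C17Rik fell by 0.89, 1.28, 0.88 and 0.79 log2 units in that order, and She differed by -0.42 without passing (limma adjusted p = 0.170). The 6 points fall into 2 genotypes, so these values hold both the difference between groups and the spread within them. For Bcl2l11 that spread lay mostly among the knockout arrays (SD 0.22 log2 units, against 0.03 in wild type), with replicate 1 lowest. The 2 parts were not told apart.

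Around the family, 92 further genes of apoptosis were listed in 8 groups, and 67 were tested. Endog rose and Usp9x fell (2.99% of the 67, beside 3.55% of all genes), and 65 did not pass. An unadjusted p under 0.05 was found for 13 (19.4%, beside 17.4% of all genes), so both shares lie near the background. The median log2 difference of the 67 was 0.01.

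Of 5 tested ubiquitin enzymes acting on MCL1 and BIM, 4 were lower in knockout and 1 fell. Usp9x, an X-linked deubiquitinase known to stabilise MCL1, fell through 5 of 6 tested probe sets. The brightest (1428193_at) read 3030, 2828 and 2573 intensity units in knockout, against 3552, 3815 and 3630 in wild type, without overlap. Its level fell by 23.5%, a log2 difference of -0.39 ± 0.09 (SE, n = 3 each, limma adjusted p = 0.0341). Without knockout replicate 1, the array with little Xist signal, it was -0.44 and passed (0.0395), while leaving out knockout replicate 3 (0.0745) or any wild-type replicate (0.0928, 0.165 and 0.117) ended the call. The 4 other called Usp9x probe sets fell by 0.54 to 0.87 log2 units. Mcl1 itself, as given above, differed by -0.03 log2 units.

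Of 12 tested genes of the apoptosome, caspases and nucleases 8 were higher in knockout, 4 were lower, and 1 rose. Endog, a mitochondrial nuclease released in apoptosis, rose through both of its probe sets. The brighter (1438317_a_at) read 2288, 1954 and 2164 intensity units in knockout, against 1672, 1467 and 1528 in wild type, without overlap. The level was 1.37-fold higher, a log2 difference of 0.46 ± 0.11 (SE, n = 3 each, limma adjusted p = 0.0317). The call ended on leaving out knockout replicate 1 (0.104) or 3 (0.0632) or any wild-type replicate (0.0615, 0.15 and 0.123). Apaf1, the scaffold of the apoptosome, differed by -0.58 ± 0.19 (SE, limma adjusted p = 0.103), and Diablo, which antagonises inhibitors of apoptosis, by 0.48 ± 0.14 (0.0843). Both were named after their values were seen.

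The remaining groups held 0 calls through the brightest probe set by limma. Of 8 tested other BCL2 family genes 2 had an unadjusted p under 0.05, Bok, an effector-like relative of BAX and BAK1 (log2 difference 0.35 ± 0.14, SE, limma adjusted p = 0.175), and Pmaip1, the BH3-only protein NOXA (-0.45 ± 0.19, 0.217). Of 5 inhibitors of apoptosis 0 had such a p, with Birc6 at -0.33 ± 0.20 (limma adjusted p = 0.385) and Xiap, which blocks caspases directly, at -0.17 ± 0.15 (0.584). Of 9 mitochondrial partners 3 had, and 8 of the 9 were higher, with Vdac3, an outer membrane channel, at 0.23 ± 0.10 (limma adjusted p = 0.217) and Opa1, which shapes the inner membrane, lower at -0.26 ± 0.09 (0.134). Of 11 upstream regulators 2 had, the DNA damage kinases Atr (-0.29 ± 0.08, limma adjusted p = 0.0786) and Chek1 (0.26 ± 0.10, 0.186). Of 12 binders and kinases of BAD, BIM and BMF 1 had, the calcineurin subunit Ppp3ca (-0.49 ± 0.13, limma adjusted p = 0.0623), with the survival kinase Akt1 at -0.21 ± 0.10 (0.244). Of 5 death receptor genes 1 had, the adaptor Fadd (0.73 ± 0.20, limma adjusted p = 0.0566), with the receptor Tnfrsf10b at -0.28 ± 0.21 (0.497).

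**Figure D4:**
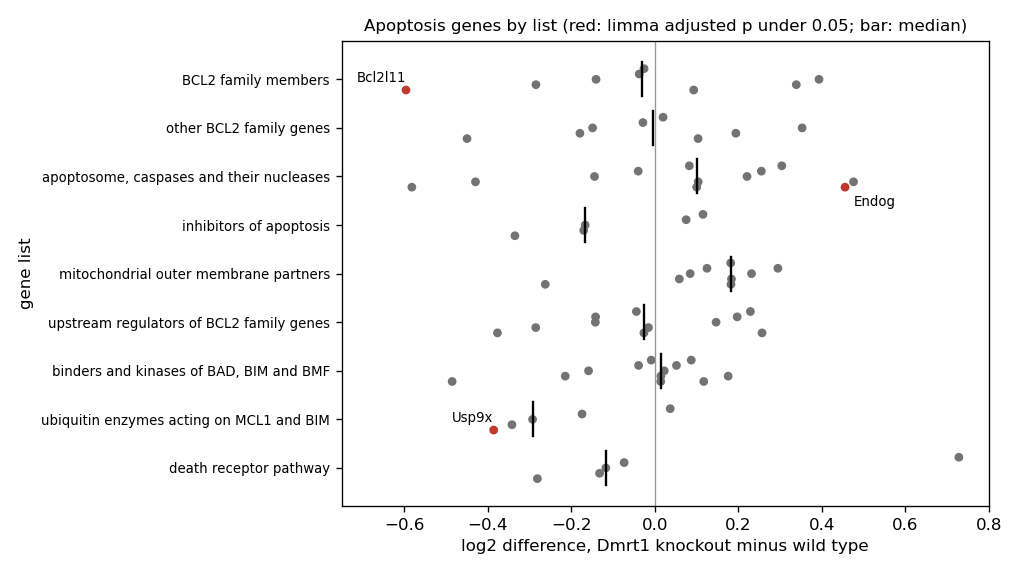
Log2 difference, Dmrt1 knockout minus wild type (horizontal axis), of each tested gene through its brightest probe set, by gene list (vertical axis), with the list's median as a black bar and calls in red. Bcl2l11 (-0.60), Usp9x (-0.39) and Endog (0.46) are the called genes, and the BCL2 family median is -0.03.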

How the data were processed

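The 6 arrays comprised 3 of dmrt1 knockout and 3 of WT ovaries and were grouped by the sample labels. The deposited values are intensities on a linear scale, made by the authors with GCRMA per the submitters' processing notes (version not given in the sources used here). GCRMA adjusts background by probe base composition and pulls dim values to a floor, near which differences widen. After a log2 transform, 64 controls of 45101 probe sets were dropped, and 22040 reached log2 4 on at least 3 arrays. Symbols came from the platform annotation, checked by gene identifier against RefSeq genes of GRCm38.p6 (34754 of 34958 matched, 0 changed). 932 probe sets naming several genes and 9160 unnamed ones named no gene here. limma 3.58.1 in R 4.3.3 (lmFit and trended eBayes, with genotype alone in the model, two-sided) gave p-values, adjusted by Benjamini-Hochberg over all tested probe sets. The fit was tested on simulated arrays. A gene counted through its brightest tested probe set.

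The members and gene lists were chosen with earlier results of these data known. Genes named are all members, the genes of each other list past the threshold or else up to 2 with the smallest p, and the 5 genes most correlated with Bcl2l11. Other names are marked. Of 157 listed genes some had no probe set tied to them alone in the annotation used, and their expression was not analysed here. The number of arrays limits the precision. 0 array pairs held identical values. Same-numbered replicates did not deviate together (correlations of deviations from the group means of -0.17, -0.25 and -0.17), so numbers were not taken as pairs. Alternatives covered the filter, the eBayes prior, array weights, the replicate block, normalization, the choice of probe set, the log offset and leaving out each array.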

Additional observations from a re-analysis of the deposited data

How the results depend on the processing

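The count of tested probe sets past the threshold, 1455 as reported, was 3282 with no filter and 956 with the stricter filter of log2 5, and 808 to 1541 on leaving out single arrays (879, 808 and 910 without wild-type replicate 1, 2 or 3). With the replicate number as a block it was 1043. The block left 0 of 8 BCL2 family genes and 0 of 67 other apoptosis genes past the threshold (1 and 7 had an unadjusted limma p under 0.05), with Bcl2l11 at -0.60 (limma adjusted p = 0.0558). The numbers do not pair the samples, and 0 of 6 samples correlated best with their own number. Averaged probe sets gave 0 BCL2 family genes (3 with an unadjusted p under 0.05) and 4 other genes (Birc6, Endog, Ppp3ca and Usp9x). Without the intensity trend 0 other genes passed (9 unadjusted). Leaving out single arrays gave 0 to 1 BCL2 family genes (0 without knockout replicate 1 and without each wild-type array) and 0 to 4 other genes. The other genes changed with the array: 4 without knockout replicate 2 (Birc6, Diablo, Endog and Usp9x), 2 without knockout replicate 1 (Apaf1 and Usp9x), 1 lacking wild-type replicate 1 (Fadd) and 0 lacking knockout replicate 3, wild-type replicate 2 or wild-type replicate 3. Signs turned only among probe sets that were not called. Averaged probe sets gave Bcl2l1 -0.36 and Bmf 0.27, array weights gave Mcl1 1456381_x_at -0.013, and quantile normalization gave Bmf 1454880_s_at 0.091. Over single arrays left out, log2 differences spanned -0.027 to 0.091 (Mcl1 1456243_x_at), -0.063 to 0.087 (Mcl1 1456381_x_at), -0.043 to 0.23 (Mcl1 1448503_at), -0.0004 to 0.17 (Bad 1416582_a_at), -0.15 to 0.11 (Bad 1416583_at) and -0.12 to 0.034 (Bmf 1454880_s_at). Fits without an array kept the same tested probe sets. The causes were not tested. The alternatives for Endog, Usp9x and the marker genes were chosen after seeing the data.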

Other observations

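Birc6, Dynll1, Ppp3ca and Cbl, 4 more genes of the apoptosis lists, fell through a probe set other than their brightest, and were named after their values were seen. Birc6, a giant inhibitor of apoptosis that also acts as a ubiquitin ligase, fell by 1.34 log2 units through 1437789_at (limma adjusted p = 0.00134) and by 0.81 through 1427488_a_at (0.0239), while its brightest probe set differed by -0.33. Dynll1, the dynein light chain that tethers BIM, fell by 0.63 through 1440278_at (0.022) and differed by -0.01 through its brightest. Ppp3ca fell by 0.60 through 1452056_s_at (limma adjusted p = 0.0239), and Cbl, a ubiquitin ligase, fell by 1.11 through 1455886_at (0.0323). Like Bcl2 1440770_at, these probe sets have a lower mean over all 6 arrays than the brightest of their gene by the way they were picked. In wild type alone, Cbl 1455886_at averaged log2 6.62, above the 6.38 of its brightest probe set.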
